A study of Mus musculus with 199 samples.

Results

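The azurophil granule and promyelocyte genes Mpo, Elane, Prtn3, Ctsg, Ms4a3, Prss57, Gfi1 and Cebpa were followed across neutrophils sorted from the liver and the blood of mice with steatohepatitis and liver tumours. They were chosen by name, as the rows of the count table whose Ensembl identifier maps to one of these symbols, and all 8 were found among 37713 genes. The study sequenced 199 libraries in 23 groups, of which 61 were sorted Ly6G+ neutrophils, 73 were sorted T cells and 65 were whole tissue. All mice behind the neutrophil libraries were male wild-type C57BL/6 animals of an in-house colony on the DEN ALIOS protocol, in which the carcinogen diethylnitrosamine is combined with the American lifestyle diet, and their age is not given in the sources used here. The liver neutrophil groups were untreated (DEN ALIOS alone, n = 6, of which 1 was labelled Vehicle), aPD1 (antibody to the checkpoint receptor PD-1, n = 5), CXCR2i (inhibitor of the neutrophil chemokine receptor CXCR2, n = 10, of which 4 were also labelled aPD1 isotype) and CXCR2i with aPD1, called the combination (n = 8). The blood groups had the same treatments with n = 7 (2 labelled Vehicle), 5, 10 (4 labelled aPD1 isotype) and 10. Of these mice, 29 gave a neutrophil library from both sites. Sample titles name the liver as the solid source, whereas the protocol in the labels names tumours, so liver is used here as in the titles.

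Azurophil (primary) granules are the first granules that a developing neutrophil makes, at the promyelocyte stage in the bone marrow. Myeloperoxidase, encoded by Mpo, and the serine proteases neutrophil elastase (Elane), proteinase 3 (Prtn3), cathepsin G (Ctsg) and neutrophil serine protease 4 (Prss57) are stored there, and their transcription ceases as the cell moves on to the myelocyte stage, when specific granule proteins such as lactoferrin are made. A circulating neutrophil therefore carries the granule proteins with little of their mRNA. Ms4a3 encodes a membrane protein of granulocyte-monocyte progenitors and their immediate progeny. Cebpa encodes the transcription factor C/EBP-alpha, which directs progenitors to the granulocyte and monocyte lineages, and Gfi1 a transcriptional repressor required for granulocyte formation that is also used in lymphocytes.

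On GRCm38, 3 of the 5 granule enzymes lie on chromosome 10. Prss57 occupies chr10:79781474-79790961 on the minus strand, Prtn3 chr10:79874476-79883174 and Elane chr10:79886247-79888215 on the plus strand, with 83514 bases between Prss57 and Prtn3 and 3072 between Prtn3 and Elane. Mpo lies at chr11:87793581-87804413 (plus), Ctsg at chr14:56099881-56102574 (minus), Ms4a3 at chr19:11629496-11640851 (minus), Gfi1 at chr5:107716657-107726036 (minus) and Cebpa, a gene of 1 exon, at chr7:35119293-35121928 (plus). Exons of Prss57 overlap those of Fstl3 on the opposite strand over 1157 bases, 40.7% of the exon length of Prss57, and the strand setting used for counting is not given in the sources used here. Whether reads of these genes were told apart where they overlap is therefore not known. The same holds over shorter stretches for Mpo (14.95% of its exon length, with Gm11505), Prtn3 (9.18%, with Plppr3), Gfi1 (3.169%, with A430072P03Rik) and Cebpa (1.935%, with Gm45091).

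The promoters of Mpo, Elane, Prtn3 and Ctsg are shown because these granule enzymes are known to share the promyelocyte as their site of transcription, and that of Prss57 was not used here. Each is the 250 bases before the RefSeq start (GRCm38.p6), 5′ to 3′ on the gene's strand, with capitals marking AGGAAGT, a letter match to a binding motif of the ETS factor PU.1. Positions below are counted back from that RefSeq start, which differs from the gene starts given above for several genes. For Prtn3 it lies 5191 bases further in, so its window falls within the gene as given above. The windows of Mpo and Elane fall within theirs in part.
Mpo: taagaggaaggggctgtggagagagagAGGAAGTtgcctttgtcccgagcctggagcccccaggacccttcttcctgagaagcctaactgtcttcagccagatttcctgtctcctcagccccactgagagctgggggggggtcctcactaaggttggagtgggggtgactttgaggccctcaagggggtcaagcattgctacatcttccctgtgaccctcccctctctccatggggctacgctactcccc
Elane: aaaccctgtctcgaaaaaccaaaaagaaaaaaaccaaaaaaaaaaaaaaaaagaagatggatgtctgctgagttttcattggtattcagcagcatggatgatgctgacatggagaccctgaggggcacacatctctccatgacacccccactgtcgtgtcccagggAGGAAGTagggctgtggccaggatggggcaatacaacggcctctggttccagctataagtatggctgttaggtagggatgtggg
Prtn3: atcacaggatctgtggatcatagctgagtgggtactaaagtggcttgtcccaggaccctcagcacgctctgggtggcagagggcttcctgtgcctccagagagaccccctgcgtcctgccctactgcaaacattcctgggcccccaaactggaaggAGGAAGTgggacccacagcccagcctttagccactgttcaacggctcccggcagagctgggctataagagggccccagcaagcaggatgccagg
Ctsg: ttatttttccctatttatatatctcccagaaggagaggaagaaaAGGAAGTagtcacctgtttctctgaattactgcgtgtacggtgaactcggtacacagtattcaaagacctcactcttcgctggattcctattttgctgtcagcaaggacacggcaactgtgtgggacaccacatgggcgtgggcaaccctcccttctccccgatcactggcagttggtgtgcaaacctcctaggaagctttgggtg
The windows are chr11:87793534-87793783 (plus) for Mpo, chr10:79886062-79886311 (plus) for Elane, chr10:79879417-79879666 (plus) for Prtn3 and chr14:56102575-56102824 (minus) for Ctsg. The match runs from -223 to -217 in Mpo, from -84 to -78 in Elane, from -94 to -88 in Prtn3 and from -206 to -200 in Ctsg. On either strand the same letters occur in 7.686% of 32851 promoter windows of this length, and they were not found in the windows of Ms4a3, Gfi1 or Cebpa. A C/EBP motif (TTNNGNAA, either strand) was found in the windows of Ms4a3 and Gfi1, and 36.85% of all windows hold it. These matches are descriptions of the sequence and were not tied to any measurement here.

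Neutrophil libraries held 580113 to 9256224 gene counts (median 5690277), so the 3 counts that a value of 0 allows correspond to 0.527 CPM in a library of median depth, where CPM is counts per 1000000 gene counts. Liver combination replicate 2 (580113 counts) and blood untreated replicate 1 (950488) had under 1000000. The T cell receptor subunit Cd3e exceeded 20 CPM in 4 liver libraries, namely untreated replicates 2 and 5 and aPD1 replicates 2 and 4. All 7 defining neutrophil markers, among them Ly6g and S100a8, were detected in each of the 8 groups. Their summed level was as low as 1431 CPM in liver aPD1 and 2340 CPM in liver untreated libraries, against at least 17400 CPM in every blood library. Results are therefore given with and without the animals of the shallow and the Cd3e-rich libraries wherever that changes a call. The untreated libraries came from run set A and the aPD1 libraries from run set B, where a run set joins the sequencing runs named in the labels, while CXCR2i and combination libraries came from several.

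Transcripts of the granule enzymes and Ms4a3 were scarce in every group. Over these 6 genes and 61 libraries, 150 of 366 values were 0 and 251 (68.6%) were at or below 3 counts, and the genes together received 1423 counts. In bulk libraries, fewer cells that transcribe a gene and less RNA of it per cell cannot be told apart. The highest single value was 13.9 CPM in liver and 4.667 CPM in blood. Cebpa was the most abundant member per exon length in each of the 8 groups. Gfi1 followed in the liver medians of CPM per kilobase, and Prss57 in blood. Per kilobase of exon, group medians ran from 3.57 to 18.2 CPM for Cebpa and from 0.257 to 1.84 CPM for Gfi1, against 0.135 to 0.704 for Prss57, 0.0335 to 0.712 for Mpo, 0.0661 to 0.562 for Prtn3, 0 to 0.649 for Elane, 0 to 0.415 for Ms4a3 and 0 to 0.0563 for Ctsg. By mean CPM, Cebpa stood above 84.3% to 90.0% of all genes in the 8 groups, Gfi1 above 72.9% to 78.4%, Prss57 above 59.02% to 76.95% and Mpo above 55.1% to 77.1%.

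**Figure D1:**
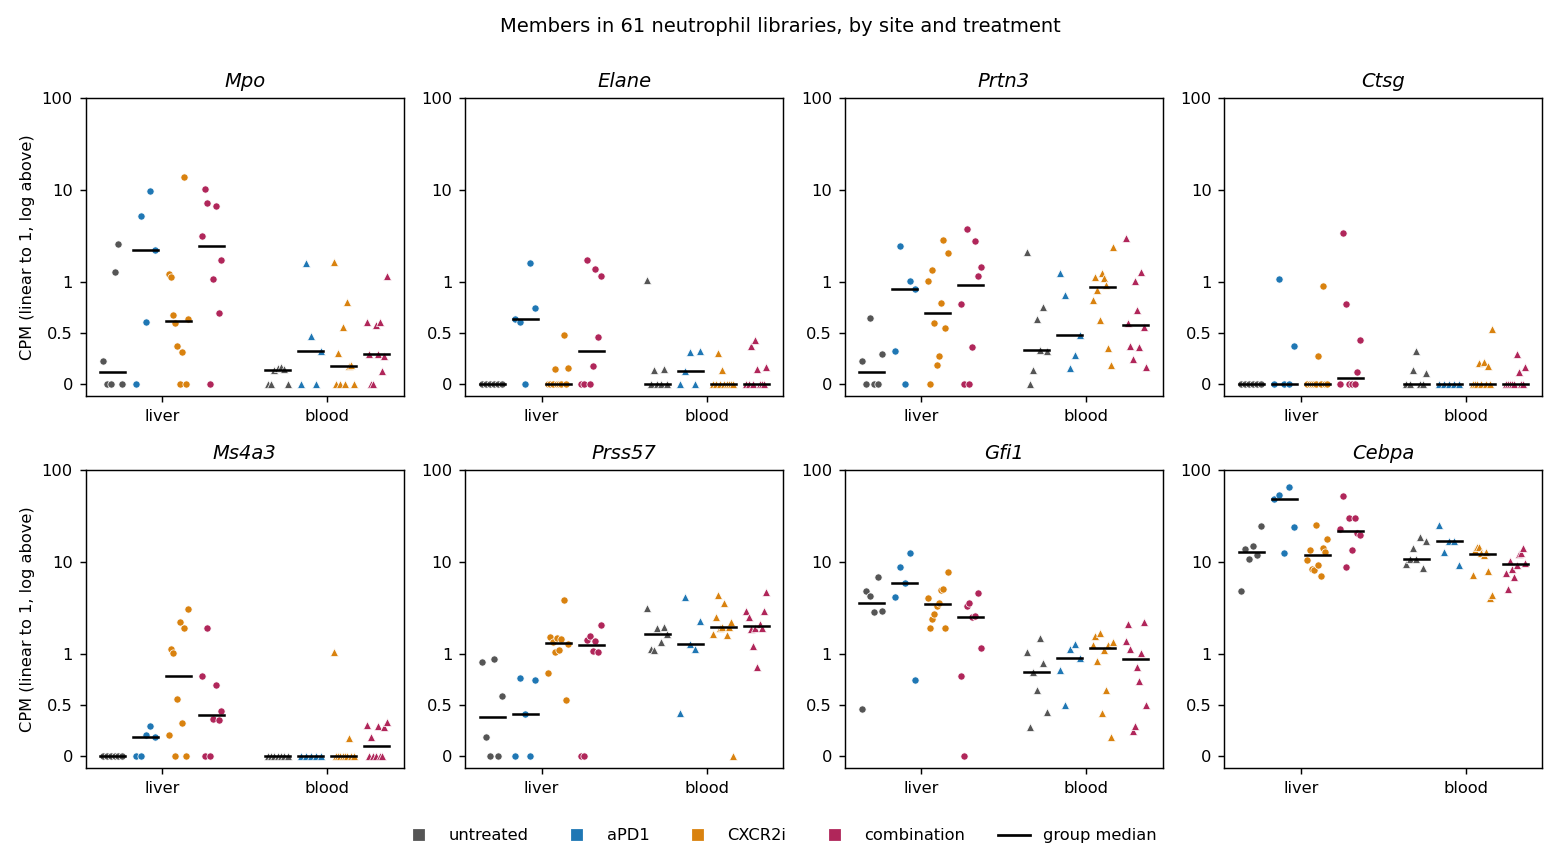
CPM of each of the 8 genes in every neutrophil library, by group, with liver as circles, blood as triangles and the group median as a black bar (vertical axis linear up to 1 CPM and logarithmic above). Mpo, Elane, Prtn3, Ctsg and Ms4a3 lie mostly below 1 CPM, with the highest point being Mpo at 13.9 CPM in 1 liver CXCR2i library, while Cebpa lies above 4 CPM in every library.

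Mpo, the peroxidase that forms hypochlorous acid, had 0.229, 0, 0, 1.27, 2.60 and 0 CPM in the 6 liver untreated libraries and 0, 5.19, 0.607, 9.69 and 2.23 CPM in the 5 liver aPD1 libraries. In liver CXCR2i it ranged from 0 to 13.9 CPM with a median of 0.617, and in the liver combination from 0 to 10.3 CPM with a median of 2.44. Blood medians were 0.137 CPM (untreated), 0.320 (aPD1), 0.180 (CXCR2i) and 0.294 (combination), and no blood library exceeded 1.66 CPM. Values above 3 CPM came from 2 liver aPD1, 4 liver combination and 1 liver CXCR2i library, replicate 8, and the other CXCR2i livers were at or below 1.22 CPM. Untreated livers reached 2.60 CPM, above every blood library, and every liver group also held libraries below 1 CPM. The 2 highest aPD1 values belong to the Cd3e-rich replicates 2 and 4, and the 10.3 CPM of the combination to the shallow replicate 2, where it stands for few counts. Ordered by median, the groups ran liver combination, liver aPD1, liver CXCR2i, blood aPD1, blood combination, blood CXCR2i, blood untreated and liver untreated, but all 7 neighbouring groups overlapped and so did all 28 group pairs.

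Elane, the protease whose mutation causes severe congenital neutropenia in people, had no count in any of the 6 liver untreated libraries. It had 0.638, 0.611, 0, 1.59 and 0.745 CPM in liver aPD1 (21 counts in all) and 0, 0, 1.72, 0, 0.18, 1.39, 0.465 and 1.16 CPM in the liver combination (30 counts). Liver CXCR2i held 4 counts and the blood groups 3, 5, 3 and 7. Against a floor of 3 counts over the liver untreated group (0.123 CPM), the pooled level was 6.87-fold that floor in the liver combination and 6.36-fold in liver aPD1. The Cd3e-rich aPD1 replicate 4 held 11 of the 21 counts, and without it the ratio was 4.07-fold. These bounds rest on pooled counts and cover counting error only, and the range of every group included values that the others reached.

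Prtn3, which lies next to Elane and is likewise an elastase-type protease, was seen at a low level in all groups. It had 0.229, 0, 0.65, 0, 0 and 0.291 CPM in liver untreated and 0.319, 2.44, 0, 1.01 and 0.931 CPM in liver aPD1. Liver CXCR2i ranged from 0 to 2.88 CPM with a median of 0.696, and the liver combination from 0 to 3.76 CPM with a median of 0.973. Blood medians were 0.333 CPM (untreated), 0.481 (aPD1), 0.947 (CXCR2i) and 0.576 (combination). All groups overlapped. Ctsg, a chymotrypsin-like protease, was the least abundant: it had no count in liver untreated or blood aPD1, 9 counts in liver aPD1, 5 in liver CXCR2i, 11 in the liver combination, and 4, 5 and 4 in the blood untreated, CXCR2i and combination groups. Its highest value, 3.45 CPM, is that of the shallow combination replicate 2.

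Ms4a3 showed the clearest presence and absence. No count was seen in liver untreated, blood untreated or blood aPD1 libraries, and liver aPD1 held 4 counts. Under CXCR2i, 8 of 10 liver libraries had counts (0 to 3.03 CPM, median 0.782, 47 counts in all) and 2 of 10 blood libraries (6 counts). In the combination, 6 of 8 liver libraries (0 to 1.88 CPM, median 0.397, 24 counts) and 5 of 10 blood libraries (9 counts) had counts. Against a floor of 3 counts over the liver untreated group, the pooled level was at least 8.19-fold higher in liver CXCR2i and at least 5.49-fold higher in the liver combination. CXCR2i replicate 10 held 19 of the 47 counts, and without it the ratio was 5.64-fold. Combination replicate 3 held 12 of the 24 counts, and without it the ratio was 3.35-fold. Ranges overlapped in all 28 group pairs because some libraries of the inhibitor groups were also at 0. Liver and blood of the same mouse gave a higher value in liver in 16 animals and in blood in 2, while in 11 both were 0.

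Prss57, a protease that cleaves after arginine, was higher in blood than in liver in untreated and aPD1 mice. In liver it had 0.916, 0.185, 0, 0.952, 0 and 0.582 CPM in the untreated group and 0, 0.763, 0.405, 0 and 0.745 CPM under aPD1. In blood the untreated libraries ranged from 1.09 to 3.16 CPM with a median of 1.62, and the aPD1 libraries had 0.422, 4.11, 1.27, 1.13 and 2.24 CPM. Liver CXCR2i (0.546 to 3.83, median 1.31) and the liver combination (0 to 2.03, median 1.23) lay nearer to their blood counterparts (0 to 4.32, median 1.95, and 0.871 to 4.67, median 2.00). Ordered by median, the groups ran blood combination, blood CXCR2i, blood untreated, liver CXCR2i, blood aPD1, liver combination, liver aPD1 and liver untreated. All neighbours in that order overlapped, and 3 of 28 pairs did not: blood untreated lay above liver untreated and above liver aPD1, and the blood combination above liver aPD1. The overlapping Fstl3 had median levels of 1.61 CPM (untreated) and 2.05 CPM (aPD1) in liver, against 3.16 and 3.01 CPM in blood, and its part in the Prss57 counts was not tested.

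Gfi1 passed the test of liver against blood under all 4 treatments (values follow below), with the higher levels in liver. Liver untreated libraries ranged from 0.458 to 6.80 CPM with a median of 3.57, and liver aPD1 libraries had 4.15, 8.86, 5.87, 12.4 and 0.745 CPM. Liver CXCR2i ranged from 1.88 to 7.81 CPM (median 3.44) and the liver combination from 0 to 4.53 CPM (median 2.53). The 4 liver medians stood above the 4 blood medians, which were 0.821 CPM (untreated, 0.280 to 1.50), 0.961 (aPD1, 0.499 to 1.27), 1.17 (CXCR2i, 0.185 to 1.68) and 0.949 (combination, 0.241 to 2.23). Every liver CXCR2i library lay above every blood CXCR2i, aPD1 and untreated library, and these were the 3 of 28 pairs without overlap. Neighbours in the order overlapped in all 7 cases.

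Cebpa was present in every library. Liver untreated libraries ranged from 4.81 to 24.4 CPM (median 12.8), and liver aPD1 libraries had 47.9, 53.6, 12.3, 65.1 and 23.6 CPM. Liver CXCR2i ranged from 7.02 to 25.3 CPM (median 11.7) and the liver combination from 8.77 to 51.7 CPM (median 21.6). Blood libraries ranged from 8.45 to 18.6 CPM (median 10.7) when untreated, had 24.9, 12.7, 16.6, 16.8 and 9.13 CPM under aPD1, and ranged from 4.07 to 14.3 CPM (median 12.1) under CXCR2i and from 5.05 to 14.1 CPM (median 9.40) in the combination. The highest values thus came from liver aPD1 and combination libraries, and all 28 group pairs overlapped.

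The 6 granule and membrane members together stayed at or below 24.0 CPM in libraries rich in specific granule transcripts. The 12 specific granule genes, among them Ltf (lactoferrin) and Camp (cathelicidin), summed to a median of 2854 CPM in liver untreated and 3028 in liver aPD1 libraries, but to 21650 in liver CXCR2i and 36150 in the liver combination. In the same libraries the 6 granule and membrane members summed to medians of 1.12, 5.21, 3.51 and 5.98 CPM. The liver combination libraries spread from 1.54 to 16.8 CPM for this sum. In replicates 3 and 6, with 46300 and 49210 CPM of specific granule transcripts, Mpo had 7.20 and 6.70 CPM, above the 0.4697 and 0.6933 CPM that 3 counts stand for there. Ltf alone went from a median of 236.8 CPM in liver untreated to 12090 CPM in the liver combination. Blood medians of the specific granule sum were 3186, 4244, 4847 and 8295 CPM in the untreated, aPD1, CXCR2i and combination groups, and those of the 6 members 2.05, 2.22, 3.51 and 3.38 CPM.

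**Figure D2:**
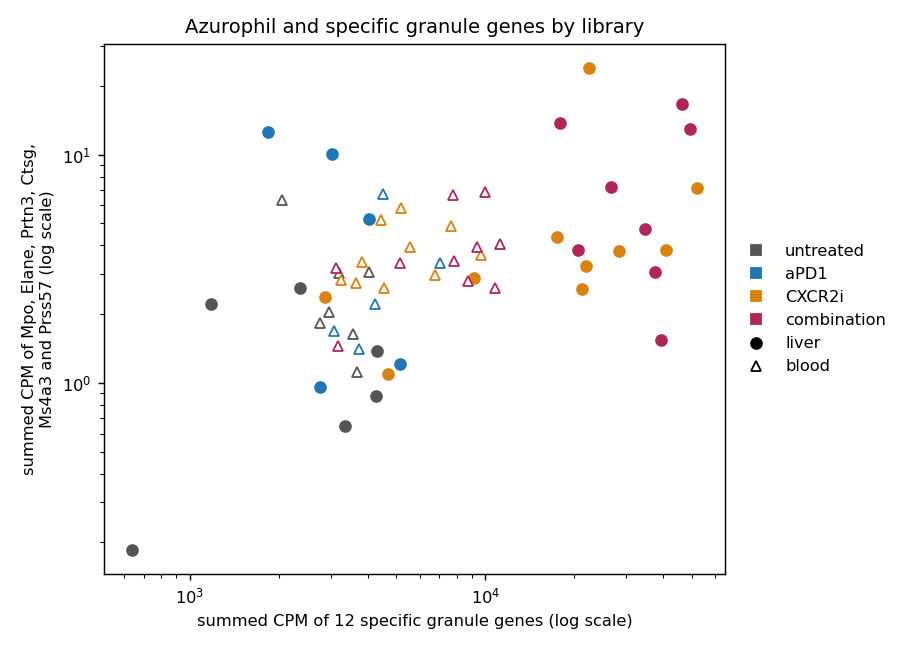
Summed CPM of Mpo, Elane, Prtn3, Ctsg, Ms4a3 and Prss57 (vertical, log axis) against summed CPM of 12 specific granule genes (horizontal, log axis) in each neutrophil library, by site and treatment. The specific granule sum spans 636 to 52000 CPM in liver, while the sum of the 6 members reaches 24.0 CPM at most.

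Whether liver neutrophils differ from blood neutrophils of the same mouse was tested in 29 animals with both libraries, in 1 edgeR quasi-likelihood fit with the animal as a block and a site effect for each treatment. The filter on low counts left 12831 genes and 5 members, Mpo, Prtn3, Prss57, Gfi1 and Cebpa. Elane, Ctsg and Ms4a3 had too few counts to enter. The filter ran over both sites together. Run within each site, it kept Mpo, Prtn3, Gfi1 and Cebpa in liver, and Prss57 and Cebpa in blood. Mpo and Gfi1 thus entered through liver and Prss57 through blood, the site where each was higher. Counts of called members are therefore descriptive. Fold changes are given as log2 of liver over blood with the standard error (SE), and p-values are Benjamini-Hochberg adjusted over the tested genes. Fits were made on few counts for Mpo, Prtn3 and Prss57, so their errors are wide.

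In untreated mice, 2 of 5 tested members passed the threshold of 0.05, against 43.2% of all tested genes. Gfi1 was higher in liver in 5 of 6 animals, with a log2 fold change of 2.35 ± 0.58 (5.11-fold, adjusted p = 0.00168). Prss57 was lower in liver in 6 of 6 animals, by 4.63-fold (log2 fold change -2.21 ± 0.74, adjusted p = 0.0164). Mpo (2.24 ± 1.46, adjusted p = 0.216), Prtn3 (-1.65 ± 1.00, adjusted p = 0.18) and Cebpa (0.11 ± 0.31, adjusted p = 0.798) did not pass. Without the animals of the shallow and Cd3e-rich libraries, when 27.5% of genes passed, Gfi1 stayed called (2.17, adjusted p = 0.0256) and Prss57 did not (-1.59, adjusted p = 0.211). Of the 6 untreated animals, those of liver replicates 2 and 5 and of blood replicate 1 were left out. The part of the smaller number of animals in the lost call was not tested. The call of Prss57 was also lost when untreated replicate 3 (adjusted p = 0.052) or 5 (adjusted p = 0.067) was left out.

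Under aPD1, 3 of 5 tested members passed, with 54.7% of all tested genes passing in this comparison. Gfi1 was higher in liver in 4 of 5 animals (log2 fold change 2.11 ± 0.59, 4.33-fold, adjusted p = 0.00353), and Prss57 lower in 5 of 5 (-2.66 ± 0.80, 6.32-fold, adjusted p = 0.00596). Cebpa was higher in liver in 4 of 5 (0.88 ± 0.33, adjusted p = 0.0237). None of the 3 stayed called without the Cd3e-rich aPD1 libraries and the other animals named above, when 23.8% of genes passed. Of the 5 aPD1 animals, replicates 2 and 4 were left out, and the part of the smaller number of animals in the lost calls was not tested. Gfi1 then had a log2 fold change of 1.50 (adjusted p = 0.134), Prss57 of -1.80 (adjusted p = 0.179) and Cebpa of 0.58 (adjusted p = 0.306). The call of Cebpa was also lost on leaving out aPD1 replicate 1, 2, 4 or 5 (adjusted p of 0.0737, 0.147, 0.0956 and 0.0704).

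Under CXCR2i, Gfi1 was the only one of 5 tested members to pass, against 40.5% of all tested genes. It was higher in liver in 10 of 10 animals, with a log2 fold change of 2.00 ± 0.41 (4.00-fold, adjusted p = 0.000273). Prss57 was at -0.41 ± 0.50 (adjusted p = 0.543), Mpo at 1.49 ± 0.93 (adjusted p = 0.207), Prtn3 at -0.06 ± 0.57 (adjusted p = 0.941) and Cebpa at 0.43 ± 0.24 (adjusted p = 0.159). Ms4a3, outside the main fit, was called under CXCR2i in other settings. It had a log2 fold change of 3.78 ± 1.25 (adjusted p = 0.019) without the filter on low counts, when 15.1% of genes passed. In that fit it was not called between sites under the other treatments. Without the shallow and Cd3e-rich libraries, when 47.3% passed, it was at 3.52 (adjusted p = 0.00636). There the filter admitted it through its liver levels, as no blood library exceeded 1.035 CPM.

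In the combination, 3 of 5 tested members passed, all higher in liver, against 45.6% of all tested genes in either direction and 24.6% higher. Of these members, Mpo and Gfi1 had entered the fit through their liver levels. Mpo was higher in liver in 7 of 8 animals (log2 fold change 2.77 ± 0.93, 6.82-fold, adjusted p = 0.0159). Gfi1 was higher in 6 of 8 (1.44 ± 0.50, 2.70-fold, adjusted p = 0.0187) and Cebpa in 8 of 8 (1.02 ± 0.26, 2.03-fold, adjusted p = 0.00221). Prss57 (-0.94 ± 0.58, adjusted p = 0.184) and Prtn3 (0.89 ± 0.72, adjusted p = 0.324) did not pass. All 3 stayed called without the shallow library and the other animals named above, when 47.1% of genes passed, with log2 fold changes of 2.35 for Mpo, 1.51 for Gfi1 and 0.86 for Cebpa. The call of Gfi1 was lost on leaving out combination replicate 3 (adjusted p = 0.0746) or 7 (adjusted p = 0.0566).

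**Figure D3:**
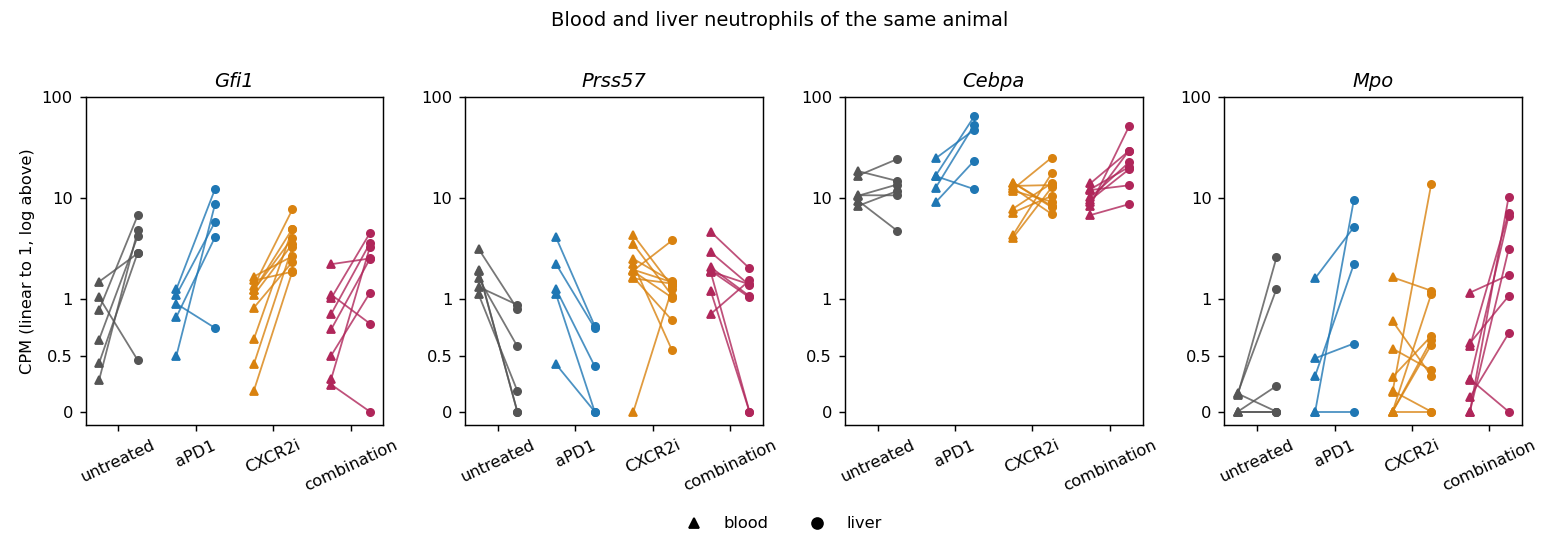
CPM of Gfi1, Prss57, Cebpa and Mpo in blood (triangle) and liver (circle) neutrophils of the same animal, 1 line per animal, by treatment. Over the 29 animals the line rises towards liver for Gfi1 in 25, falls for Prss57 in 26, and rises for Cebpa in 21 and for Mpo in 19.

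**Figure D4:**
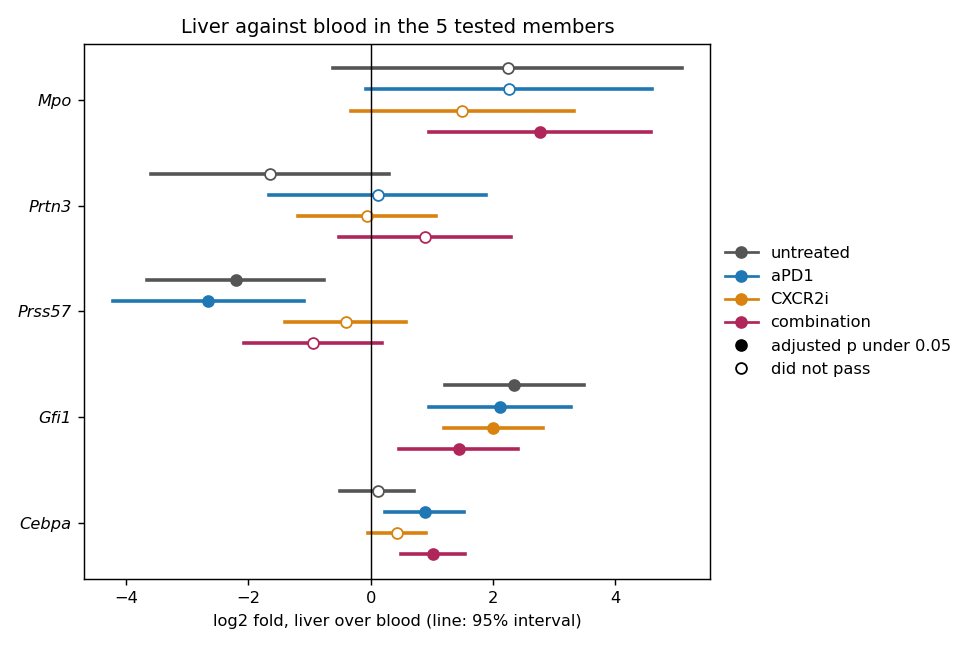
Log2 fold change of liver over blood neutrophils with its 95% interval for the 5 tested members under each of the 4 treatments, with filled points where the adjusted p is under 0.05. Gfi1 has filled points at all 4 treatments, from 1.44 to 2.35, while Prss57 has them in untreated and aPD1 mice, at -2.21 and -2.66.

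Over all 29 animals, Gfi1 was higher in liver in 25 and lower in 4, and Prss57 was higher in 3 and lower in 26. Cebpa was higher in liver in 21 and Mpo in 19, with 4 animals at 0 in both sites for Mpo. For Prtn3 (higher in 12, lower in 16), Elane (12 and 7) and Ctsg (8 and 6) the animals were divided. The median log2 fold change over all tested genes was 0.15, 0.24, 0.09 and 0.06 in untreated, aPD1, CXCR2i and combination mice, against 2.35, 2.11, 2.00 and 1.44 for Gfi1.

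Whether the site difference itself depended on the inhibitor was tested as the difference of 2 site effects. It was not detectable for any of the 5 tested members, and Elane, Ctsg and Ms4a3 did not enter this test. CXCR2i minus untreated called 0 of 5 members and 0.561% of all genes, by edgeR, with 0 members at an unadjusted p under 0.05. DESeq2 gave only 2 members an adjusted p and called 0 of them, against 4.52% of genes. The combination minus untreated called 0 of 5 members and 2.43% of all genes, with Cebpa and Prtn3 at an unadjusted p under 0.05. DESeq2 gave 4 members an adjusted p and called 0 of them, against 8.2% of genes. For Prss57 the site effect was 1.80 ± 0.89 higher on the log2 scale under CXCR2i (adjusted p = 0.351) and 1.27 ± 0.93 higher in the combination (adjusted p = 0.537). The difference between a called site effect in untreated mice and an uncalled one under the inhibitor was thus not shown for this gene. For Gfi1 the changes were -0.35 ± 0.69 (adjusted p = 0.865) and -0.92 ± 0.76 (adjusted p = 0.592). Prtn3 stood at 2.54 ± 1.23 (adjusted p = 0.306) and Cebpa at 0.91 ± 0.41 (adjusted p = 0.251) in the combination.

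Within the liver, what each treatment changed against untreated mice was tested over all 29 liver libraries with the run set as a term, and 4 members, Mpo, Prtn3, Gfi1 and Cebpa, passed the filter. None of the 4 was called in any liver comparison by edgeR. DESeq2 called none of the members to which it gave an adjusted p, and their number differed by comparison. The comparison of the combination with untreated mice called 0 of 4 members and 10.8% of 11945 genes, with Mpo and Prtn3 at an unadjusted p under 0.05. DESeq2 called 0 of 6 members and 15.7% of genes. Prtn3 had a log2 fold change of 2.73 ± 1.04 (adjusted p = 0.0873), Mpo of 2.46 ± 1.13 (adjusted p = 0.153), Cebpa of 0.60 ± 0.34 (adjusted p = 0.262) and Gfi1 of -0.57 ± 0.57 (adjusted p = 0.553). Without the filter on low counts, when 3.46% of genes passed, so did Ms4a3 (adjusted p = 0.0456), with the liver untreated group at 0.

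The other liver comparisons had few calls over all genes. CXCR2i against untreated called 0 of 4 members and 0.142% of genes, aPD1 against untreated 0 of 4 and 0.0%, and the combination against aPD1 0 of 4 and 0.444%. No tested member had an unadjusted p under 0.05 in these 3 comparisons. DESeq2 called 0 of 5, 8 and 3 members and 2.58%, 0.0199% and 1.27% of genes. Under CXCR2i, Mpo was at 0.56 ± 1.43, Prtn3 at 1.57 ± 1.22, Gfi1 at -0.32 ± 0.70 and Cebpa at -0.22 ± 0.46 on the log2 scale. Under aPD1 they were at 2.20 ± 1.53, 1.62 ± 1.32, 0.31 ± 0.78 and 0.87 ± 0.50. The aPD1 and untreated libraries share no run set, so that contrast rests on run effects estimated from the other groups. With these errors, changes of several-fold in Mpo and Prtn3 were not detectable.

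In blood, only Prss57 and Cebpa passed the filter over the 32 libraries. Cebpa was lower in combination than in untreated mice, with a log2 fold change of -0.68 ± 0.19 (1.61-fold, adjusted p = 0.0114), 1 of 2 tested members called against 14.9% of 10217 genes. Its level was 8.45 to 18.6 CPM in untreated and 5.05 to 14.1 CPM in combination libraries, which overlap. Within run set A alone it was at -0.60 (adjusted p = 0.0474), and the call was lost without the run set term (-0.55, adjusted p = 0.0979). Prss57 was at 0.08 ± 0.45 in the same comparison. Cebpa was at -0.64 ± 0.25 under CXCR2i (unadjusted p = 0.0176, adjusted p = 0.122), where 0 of 2 members and 6.9% of genes were called, while DESeq2 called Ms4a3 and 8.61% of genes.

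Under aPD1 against untreated, 0 of 2 members and 0.0% of genes were called in blood, with 0 members at an unadjusted p under 0.05 and 0 by DESeq2, against 1.13% of genes. The combination against aPD1 called 0 of 2 members and 0.0196% of genes, with 0 members at an unadjusted p under 0.05. DESeq2 called Ms4a3 there, with 2.28% of genes, and in the combination against untreated, with 10.1%, each time against a group in which it had no count. Prss57 (0.69 ± 0.51) and Cebpa (-0.40 ± 0.23, adjusted p = 0.617) did not pass in the combination against aPD1.

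Genes that serve the same granule without being confined to the promyelocyte were also called between sites. Of 17 tested azurophil granule partners (processing enzymes, inhibitors and lysosomal contents), 9 were higher and 4 lower in liver in untreated mice, with a median log2 fold change of 0.77, against 26.2% and 17.1% of all tested genes. The counts were 9 and 3 under aPD1, 9 and 2 under CXCR2i, and 9 and 2 in the combination (medians 0.86, 0.67 and 0.99). Of all tested genes, 32.8%, 23.6% and 24.6% were higher and 21.9%, 16.8% and 21.0% lower in these comparisons. Ctsc, the dipeptidyl peptidase that activates the granule serine proteases, was higher in liver under all 4 treatments, by 1.92 ± 0.39, 3.36 ± 0.45, 1.32 ± 0.28 and 2.17 ± 0.32 on the log2 scale (adjusted p of 0.000298, 1.32e-06, 0.000417 and 3.85e-06). Its median went from 12.6 CPM in blood untreated to 56.9 CPM in liver untreated libraries. Ctsc is also expressed by macrophages and lymphocytes. Serpinb1a, an inhibitor of elastase, proteinase 3 and cathepsin G, was higher in liver under CXCR2i (2.25 ± 0.30, adjusted p = 7.57e-07).

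Serpinb1a also separated the treatments. Against untreated mice it was higher in the combination in liver (4.03 ± 0.59, adjusted p = 0.000165) and in blood (3.00 ± 0.54, adjusted p = 0.000523), and under CXCR2i in liver (3.22 ± 0.67, adjusted p = 0.0406). Its median was 13.1 CPM in liver untreated and 203 CPM in the liver combination, with no overlap between 2.54 to 19.2 CPM and 77.6 to 355 CPM. In that liver comparison 3 of the tested partners were higher and 1 lower (5.66% and 5.12% of all tested genes were), including Lyz2 (lysozyme, 1.94 ± 0.49, adjusted p = 0.0139) and Cd68, which was lower (-1.40 ± 0.32). In the liver combination libraries, in which this inhibitor had at least 77.6 CPM, Elane, Prtn3 and Ctsg had at most 3.76 CPM.

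Other genes of granulocyte-monocyte progenitors gave a mixed picture. Of 14 tested, 7 were higher in liver than in blood under each treatment, and 2, 1, 0 and 0 were lower in untreated, aPD1, CXCR2i and combination mice, with median log2 fold changes of 1.39, 1.69, 1.51 and 1.04. Among all tested genes 26.2%, 32.8%, 23.6% and 24.6% were higher. Cd34, a progenitor and endothelial surface protein, was higher in liver in untreated mice (5.19 ± 1.35), under aPD1 (6.51 ± 1.34) and under CXCR2i (3.31 ± 0.98). Endothelial markers were also higher in level in liver libraries (group medians of 43.8 to 168.1 CPM for 6 genes, against 11.5 to 13.1 CPM in blood), and their part in the Cd34 values was not tested. In the liver combination against untreated, 3 progenitor genes were higher and 1 lower, with a median of -0.56. Myb, a factor of immature haematopoietic cells, was higher there (1.70 ± 0.54, adjusted p = 0.0436), from a median of 4.15 CPM in untreated to 12.5 CPM in combination libraries. Kit, the stem cell factor receptor, was higher in the blood combination (2.66 ± 0.82, adjusted p = 0.0269).

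In the liver combination against untreated, where neither Gfi1 nor Cebpa was called, 2 other factors of myeloid differentiation were higher and 1 was lower (median log2 fold change -0.40). Cebpe, the C/EBP factor that drives specific granule genes, was among the higher ones (3.72 ± 0.57, adjusted p = 0.000277), with 22.6 to 75.3 CPM against 2.04 to 4.58 CPM. It was also higher in liver than in blood in the combination (2.68 ± 0.35, adjusted p = 3.81e-07). Of the 12 specific granule genes, 10 were higher and 0 lower in the combination against untreated livers (median 3.43), where 5.66% of all tested genes were higher, among them Camp (5.04 ± 0.92), Ltf (4.79 ± 0.88, adjusted p = 0.00132) and Fcnb (4.58). In blood, 6 of 12 were higher and 0 lower in the combination (median 1.30), against 6.57% and 8.38% of all tested genes. These lists were chosen with earlier results of these libraries known, so their direction is no independent evidence.

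Cell cycle genes were higher in liver neutrophil libraries as well. Of 24 tested, 14 were higher in liver in untreated mice and 21 under each other treatment, with 0 lower, and median log2 fold changes were 2.88, 3.74, 3.46 and 4.10. The shares of all tested genes that were higher in liver were 26.2% in untreated mice and 32.8%, 23.6% and 24.6% under aPD1, CXCR2i and the combination. Their sum had a median of 113 CPM in liver untreated and 603 CPM in the liver combination libraries, against 42.8 to 64.3 CPM over the blood groups. Mki67 had 86.0 to 491 CPM in the liver combination and 3.98 to 30.4 CPM in the blood combination. Liver CXCR2i replicate 8, which had the highest Mpo value (13.9 CPM) and the highest sum of the 6 granule and membrane members (24.0 CPM against a group median of 3.51), also had the highest cell cycle sum of its group (1082 CPM) and its lowest sum of 10 mature neutrophil genes (5826 CPM). Its sum of 8 basophil and mast cell markers (15.6 CPM) was the highest of that group too.

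Markers of other cells moved with the site. Of 8 T cell markers, 7 were higher in liver in untreated mice, 6 under aPD1, 0 under CXCR2i and 1 in the combination, and their sum ranged from 2.60 to 332 CPM, 7.28 to 1239, 1.20 to 9.43 and 2.82 to 53.4 CPM in these liver groups, with 0.555 to 66.0 CPM over all blood libraries. Sorted T cells themselves had a median of 17.5 CPM of Gfi1 and 1.47 CPM of Cebpa. Gfi1 in the Cd3e-rich libraries was 4.81 and 6.80 CPM (untreated replicates 2 and 5) and 8.86 and 12.4 CPM (aPD1 replicates 2 and 4), the 2 highest values of either group. The part of T cells in the Gfi1 values was not tested. Under CXCR2i, T cell markers summed to 1.20 to 9.43 CPM in liver and 0.555 to 10.6 CPM in blood.

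Hepatocyte markers, 10 in number, summed to 71.9 to 710 CPM in liver untreated, 77.6 to 3042 in liver aPD1, 37.7 to 529 in liver CXCR2i and 52.3 to 452 CPM in the liver combination, against at most 67.9 CPM in a blood library. Of 9 tested, 9, 9, 8 and 8 were higher in liver. Whole tissue had a median of 260.2 CPM of Cebpa, which hepatocytes express. The highest Cebpa values under aPD1, 53.6 and 65.1 CPM, were those of the libraries with 3042 and 2739 CPM of hepatocyte markers. Liver aPD1 replicate 1, however, had 47.9 CPM of Cebpa at 77.6 CPM of these markers. Combination replicate 2 had 51.7 CPM at 241 CPM, and untreated replicate 2 had 13.7 CPM at 710 CPM. Monocyte markers had liver medians of 335.9, 935.3, 302.1 and 651.8 CPM (untreated, aPD1, CXCR2i, combination) and macrophage markers of 253.7, 1205, 171.5 and 518.2 CPM, against blood medians of 302.9 to 422.2 and 67.0 to 101.0 CPM. Monocytes and their progenitors also express Cebpa, and the part of hepatocytes, monocytes and macrophages in the Cebpa and Mpo values was not tested.

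**Figure D5:**
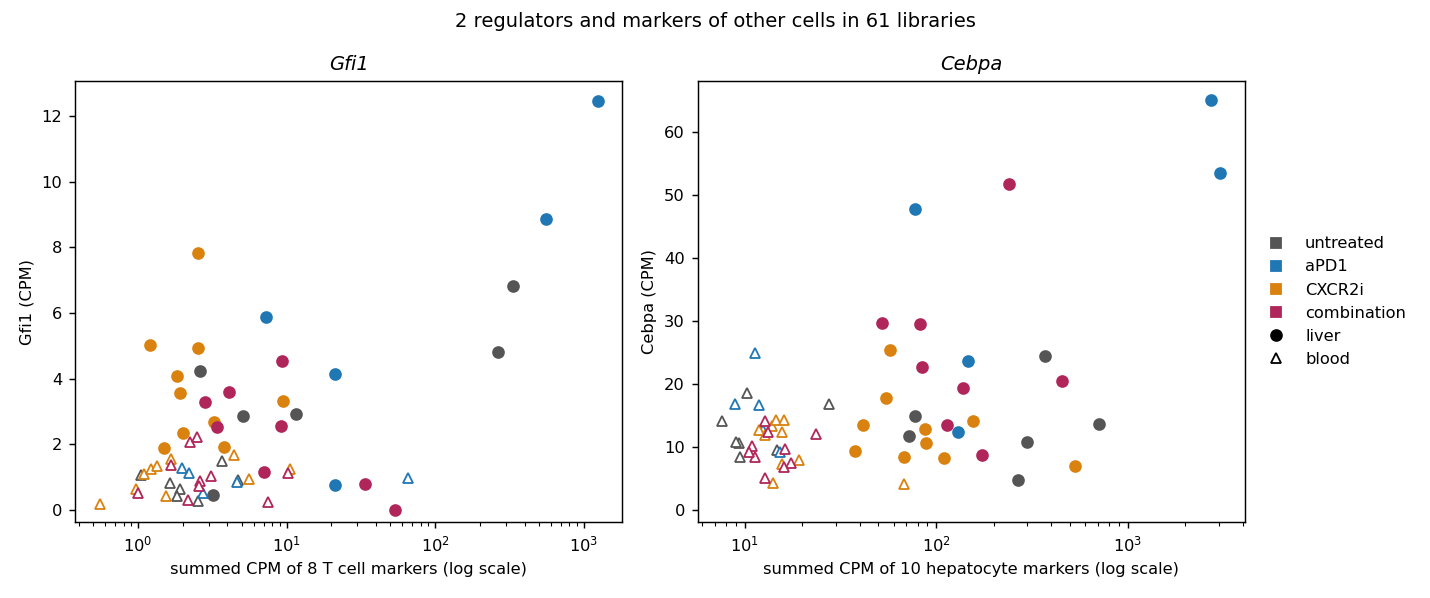
CPM of Gfi1 against the summed CPM of 8 T cell markers, and CPM of Cebpa against the summed CPM of 10 hepatocyte markers, in each neutrophil library by site and treatment. Liver CXCR2i libraries hold 1.88 to 7.81 CPM of Gfi1 at T cell sums of at most 9.43 CPM. In the other liver groups the T cell sums reach 332 CPM (untreated), 1239 CPM (aPD1) and 53.4 CPM (combination). The part of T cells in the Gfi1 values was not tested.

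Whole liver and tumour tissue, which was made with a different library kit and not tested against sorted cells, had a median of 6.881 CPM of Prtn3, with 3.05 to 72.7 CPM in liver tissue. The genes whose levels ran most like the mean of the 5 tested members over the 61 libraries were Atp5d (Spearman correlation 0.66), Cox5a, Psmb4 and Tbcb (0.65), Prkci, Usp39, Acly and Ppib (0.64), and Dnajb11 and Ndufa2 (0.63), out of 12826 genes ranked. The libraries share sites, treatments and depths, so these values describe the ranking only.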

How the data were processed

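Neutrophils were sorted by Ly6G from blood and from the solid tissue, and libraries were made with the SMARTer Stranded Total RNA-Seq Pico kit, per the labels' protocols. The authors deposited a single table of unnormalised counts, with Ensembl genes in rows and the 199 libraries in columns. Per the submitters' processing notes, HTSeq 0.11.2, HISAT2 2.1.0, Trim Galore 0.6.4 and FastQC 0.11.8 were used with GRCm38, while the annotation release and strand setting are not given in the sources used here. The 5 HTSeq summary entries held a median of 67.18% of a neutrophil library's entries and did not enter library sizes or tests. Of 37713 identifiers, 37607 were matched to a symbol by their Ensembl identifier. Exon lengths and overlaps came from GENCODE M21 and promoters from RefSeq (GRCm38.p6).

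Tests used edgeR 4.0.16 in R 4.3.3 (TMM factors, filterByExpr with a minimum count of 10 and a minimum total of 15, robust quasi-likelihood fits, Benjamini-Hochberg adjustment at 0.05). Animals are named in the labels, which pairs liver and blood. After subtraction of group means, log2 values correlated by 0.115 on average within the same animal (29 pairs) and by -0.0119 between animals (218 pairs), and the site comparison took the animal as a block. Treatments were compared within a site with the run set as a term, and there p-values measure the spread between the sampled mice. Standard errors are the fold change divided by the root of its F statistic, and figure intervals are the 95% range from them. Group sums of 0 were bounded by 3 counts. Floors and the intervals of pooled levels cover counting error only, and reads carry no molecular identifiers. Figure intervals come from the quasi-likelihood fit, which includes the spread between animals. DESeq2 1.42.0 and the settings of the closing section were alternatives. On simulated counts for the liver and blood combination comparison (12831 genes), the fit recovered 33% of genes changed 2-fold and 68% changed 4-fold, with 3.81% false calls. For the combination against untreated mice it recovered 10% and 49% in liver (11945 genes, 4.84% false calls) and 60% and 94% in blood (10217 genes, 6.1% false calls). The changed genes were drawn at random from all tested genes, with the same mean in every animal apart from the change. The rates are therefore not those of scarce members such as Mpo, Prtn3 and Prss57. Chi-square per degree of freedom was at least 5.44 in all 219 pairs of libraries from the same group, and no library was treated as a copy.

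The members and lists were chosen with earlier results of these data known. All 8 members are named in the text, and from each list at most 3 called genes per comparison, by size of the fold change.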

Additional observations from a re-analysis of the deposited data

Results flagged for a closer look

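In 58 sets of 1 gene and 1 group of 5 to 10 libraries, the highest or lowest library was checked for a gap to the rest beyond Dixon's limit. For normally distributed values chance passes it in about 1 set in 20, and 10 sets passed it. That rate does not hold for sets near 0, such as several of these with a median of 0 CPM. The number that chance would pass here is therefore not known, and the 10 sets are given as a description only. Liver CXCR2i replicate 8 accounts for 4 of them, with 13.9 CPM of Mpo, 3.834 CPM of Prss57, 0.9585 CPM of Ctsg and 0.4792 CPM of Elane. This library also had the highest cell cycle sum and the lowest sum of mature neutrophil genes of its group, as given above, and their part in the member values was not tested. Blood CXCR2i replicates gave 4 others: Ms4a3 at 1.035 CPM in replicate 1, Elane at 0.3086 CPM in replicate 3, and Ctsg at 0.5405 CPM and Prss57 at 0 CPM in replicate 10. The remaining ones were the shallow libraries, with Ctsg at 3.448 CPM in liver combination replicate 2 and Elane at 1.052 CPM in blood untreated replicate 1. Several of these values stand for 1 to 3 counts.

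Members were also seen in libraries outside the neutrophil comparisons. Gfi1 had a median of 17.54 CPM and Cebpa of 1.467 CPM in sorted T cells, and whole tissue had a median of 6.881 CPM of Prtn3 and 260.2 CPM of Cebpa.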

How the results depend on the processing

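Apart from leaving out single animals or libraries, 15 alternatives moved a count of called members and 85 left it the same or nearly so. The latter include comparisons in which no member was called in the main fit. The share of all genes called is not given for fits on 1 treatment, without Vehicle and isotype labels or without the run set term. In fits on the animals of 1 treatment alone, Cebpa was the only member left after the filter, and the counts were 0 (untreated), 1 (aPD1), 0 (CXCR2i) and 1 (combination) in place of 2, 3, 1 and 3. Without shallow and Cd3e-rich libraries they were 1 (untreated), 0 (aPD1) and 2 (CXCR2i, with Ms4a3), with 27.5%, 23.8% and 47.3% of genes called. Without libraries labelled Vehicle or aPD1 isotype the untreated site comparison called 1 member, Gfi1, with Prss57 at -1.93 (adjusted p = 0.0745), and Cebpa under aPD1 had an adjusted p of 0.0555. With no filter on low counts, 2 members were called between sites under CXCR2i, with 15.1% of genes. In the liver combination against untreated 1 member was called, Ms4a3, with 3.46% of genes. Between sites under aPD1, Cebpa was then at 0.78 (adjusted p = 0.0583). DESeq2 called 1, 2 and 1 members in blood for CXCR2i against untreated and for the combination against untreated and against aPD1. Of all genes it called 8.61%, 10.1% and 2.28% there. Without the run set term the last 2 comparisons had 0 and 1 (Cebpa at -0.80, adjusted p = 0.0436). Leaving out 1 animal at a time gave 1 to 2 called members between sites in untreated mice, 2 to 3 under aPD1 and 2 to 3 in the combination. Leaving out 1 library at a time was chosen after seeing the data. The ratios to the floor of 3 counts were then 4.07 to 7.79 (aPD1) and 5.30 to 7.87 (combination) for Elane in liver. For Ms4a3 in liver they were 5.64 to 9.57 (CXCR2i) and 3.35 to 6.34 (combination).

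Directions that changed belonged to values that were not called. Between sites, Prtn3 under aPD1 went to -0.02 with no filter, -0.01 without Vehicle and isotype labels and -0.70 without shallow and Cd3e-rich libraries, and under CXCR2i to 0.04 with no replicate block and 0.88 without those labels. The Mpo site effect changed by 0.07 under CXCR2i against untreated without shallow and Cd3e-rich libraries, and by -0.20 in the combination without Vehicle and isotype labels. In liver CXCR2i against untreated, Gfi1 went to 0.10 without the run set term, 0.19 without shallow and Cd3e-rich libraries and 0.55 with the replicate block, and Cebpa to 0.11 with that block. In the liver combination, Gfi1 went to 0.00 against untreated without shallow and Cd3e-rich libraries, and against aPD1 Mpo went to -0.03 with RLE factors and Prtn3 to -0.78 with the replicate block. In blood without the run set term, Prss57 went to 0.19 and Cebpa to 0.25 under aPD1, and Prss57 to 0.34 under CXCR2i. The causes were not tested. Leaving out 1 library or animal at a time gave ranges across 0 for Prss57 in the blood combination against untreated (-0.10 to 0.21), for Mpo in the liver combination against aPD1 (-0.93 to 0.68), for the site effect of Prtn3 under CXCR2i (-0.40 to 0.24) and aPD1 (-0.28 to 0.46) and of Cebpa in untreated mice (-0.01 to 0.21), and for the change of the Mpo site effect under CXCR2i (-1.49 to 0.08) and in the combination (-0.23 to 1.36). Called values ranged from 1.13 to 1.73 for Gfi1 in the combination, 0.66 to 1.18 for Cebpa under aPD1 and -2.70 to -1.76 for Prss57 in untreated mice.

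With no replicate block in place of the animal, the site comparisons called 2, 3, 1 and 3 members, as with it. Title numbers did not pair treatments: deviations correlated by 0.0386 within and -0.00219 between numbers in liver and by -0.00759 and 0.00353 in blood. With them as a replicate block, Cebpa in the blood combination was at -0.72 (adjusted p = 0.015), 1 member was called there, and 0 were called in the other treatment comparisons. In a library of median depth, a value of 0 allows up to 0.527 CPM.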
